A study of Drosophila melanogaster with 8 samples.

Results

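The genes described here encode the vacuolar ATPase (V-ATPase), the pump that uses ATP to move protons into endosomes, lysosomes, synaptic vesicles and, in some epithelia, across the plasma membrane. Its cytoplasmic V1 head carries subunits A to H and hydrolyses ATP. Rotation of a central stalk then drives the membrane sector V0, made of subunits a, c, c'', d and e, through which the protons pass. In Drosophila many subunits are encoded by several genes, commonly with a broadly expressed copy and further copies used in few tissues, such as the testis or a stretch of the gut. All rows of the expression table whose name begins with Vha were taken, which gave 33 of 17321 genes. They stood for 15 subunits and accessory proteins, of which 8 had more than 1 gene and 7 had 1 gene.

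The study compared maternal zygotic mutants for extra sex combs (esc) with the wild-type strain Oregon R (OrgR). The esc protein belongs to PRC2, the Polycomb complex whose histone methylation keeps developmental genes silent outside their proper domains. Each genotype had 4 libraries of total RNA, each from a pool of 200 or more whole embryos at stages 14 and 15, and no allele or genetic background of the mutants is given in the labels. The titles number the libraries 1-1, 1-2, 2-1 and 2-2, and the 2 libraries that share a first number are called a set here and counted as 1 sample, so that n = 2 sets for each genotype. Levels are in RPKM, read counts divided by gene length and by library size, which allows copies of different length to be compared. In bulk RNA of whole embryos, fewer cells of a type and less RNA per cell cannot be told apart.

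Relative depth lay between 84.4% and 100% of the deepest library. The esc gene itself was at 3.56 to 4.40 RPKM in the esc libraries and at 10.7 to 12.4 RPKM in the OrgR libraries. The pools also differed in late cuticle genes, of which 8 of 8 rose (Cpr65Ea and TwdlM most, with log2 changes of 9.39 and 9.00), with a summed level of 4724 to 9604 RPKM in esc and 48.6 to 53.5 RPKM in OrgR. Of all tested genes, 20.9% rose. The cuticle gene Ddc averaged 0.444 RPKM in OrgR and reached the level needed for testing, 0.5 RPKM, only through the esc libraries. For every gene described, a difference in developmental progress between the pools and a difference due to genotype cannot be told apart. Over the 10547 genes tested, log2 changes (esc over OrgR) had a median of -0.18, so small changes depend on the scaling.

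Of the 33 members, 24 reached 0.5 RPKM on average across the 8 libraries and were tested with limma on log2(RPKM + 1). Among these 24, 7 rose, 2 fell and 15 did not pass at an adjusted p of 0.05. Over all tested genes 20.9% rose and 31.6% fell, 52.5% in all. The median log2 change of the 24 was 0.25, beside -0.18 for all tested genes. The 9 members below the filter were all second or later copies. Calls fell into 2 kinds. Vha100-5, VhaM9.7-d, Vha36-3 and Vha100-4, all copies other than the broadly expressed one, changed by more than 1 on the log2 scale and kept their calls in all 24 other settings tried. Of these, 3 rose and 1 fell, among 24 tested members. Over all tested genes 12.6% rose and 1.89% fell by at least 1, so the members' share of such rises was near that of all genes. The remaining 5 calls were of broadly expressed copies, with log2 changes under 1 in size.

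**Figure D1:**
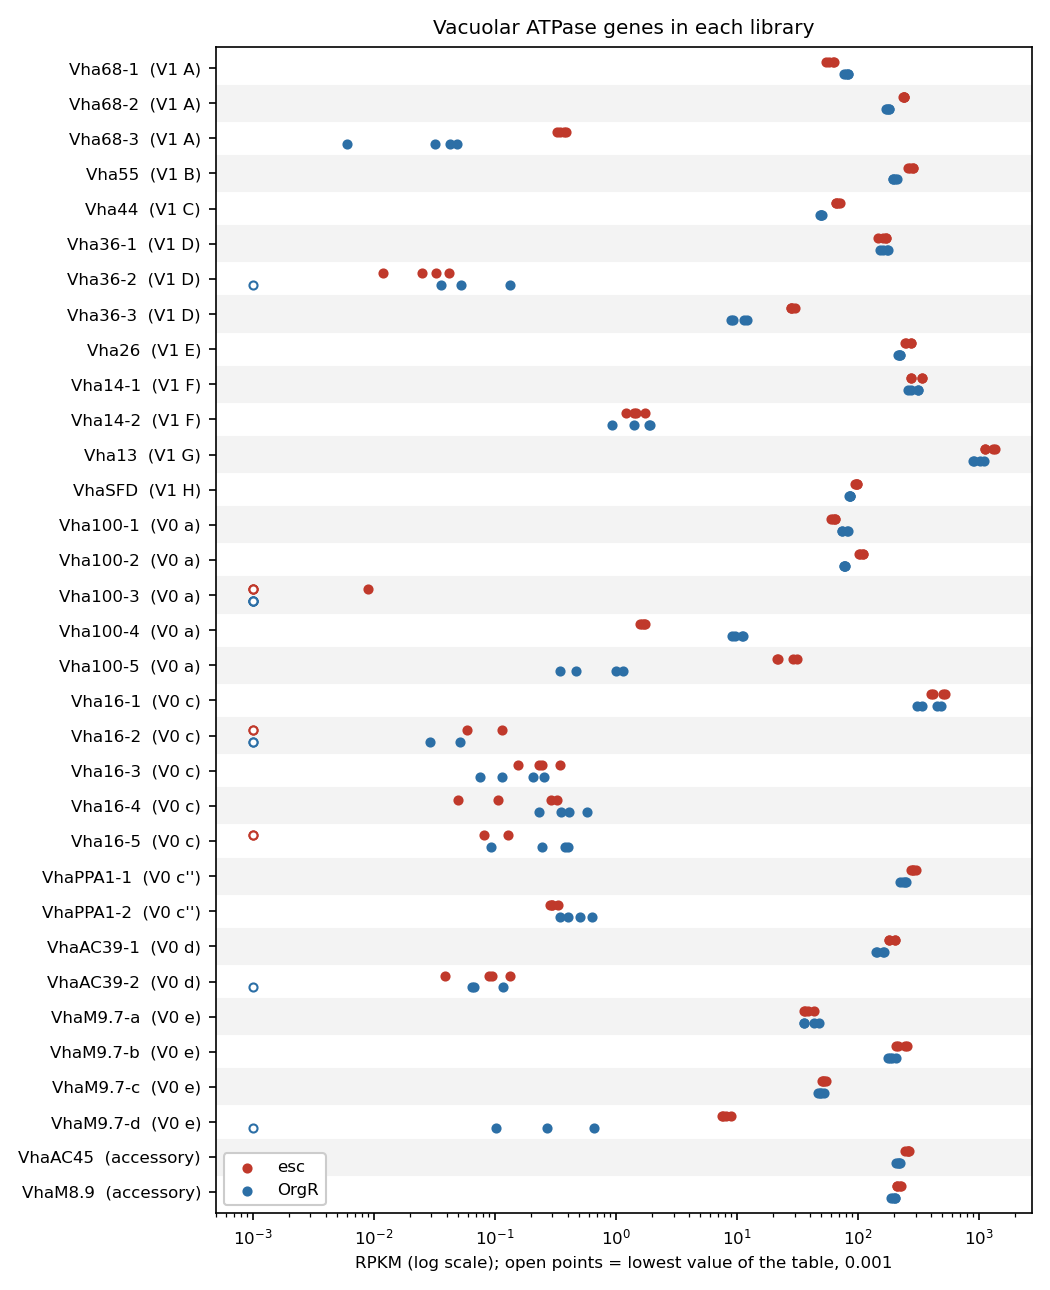
RPKM (log scale) of the 33 vacuolar ATPase genes in each of the 4 esc libraries (red, upper points of a row) and 4 OrgR libraries (blue, lower points); open points mark the lowest value of the table, 0.001. Broadly expressed copies lie between 48.7 and 1357 RPKM in both genotypes, while Vha100-5 and VhaM9.7-d stand apart between genotypes by more than an order of magnitude.

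Subunit a is the largest V0 subunit. It holds the proton channels and directs the pump to its membrane, and the fly has 5 genes for it. Vha100-5 had 21.3, 21.7, 29.3 and 31.7 RPKM in esc libraries 1-1, 1-2, 2-1 and 2-2, against 1.14, 0.999, 0.345 and 0.471 RPKM in the OrgR libraries of the same numbers. Every esc library was far above every OrgR library. The mean was 26.0 ± 6.4 RPKM in esc and 0.738 ± 0.47 RPKM in OrgR (SD, n = 2 sets each), 35.2-fold higher (log2 change 3.96 ± 0.26 SE, limma adjusted p = 0.00194). On the log2(RPKM + 1) scale it had the largest rise among members. The fold was 63.7 without OrgR set 1 and 24.4 without OrgR set 2.

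Vha100-4, whose transcripts are known mainly from the midgut, moved the other way. It had 1.64, 1.74, 1.60 and 1.72 RPKM in the esc libraries, against 11.0, 11.2, 9.66 and 9.18 RPKM in the OrgR libraries. The groups were separated by a wide gap, and the esc libraries lay close together. The mean was 1.68 ± 0.022 RPKM in esc and 10.3 ± 1.2 RPKM in OrgR, 6.12-fold lower (log2 change -2.07 ± 0.13, adjusted p = 0.00161). Of all tested genes, 1.89% fell by at least 1 on the log2 scale and 12.6% rose by as much.

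The copies of subunit a classed here, from general knowledge, as broadly expressed also separated. Vha100-2 had 105, 102, 110 and 110 RPKM in esc and 76.8, 77.9, 77.5 and 78.6 RPKM in OrgR, and rose 1.37-fold (log2 change 0.45 ± 0.08, adjusted p = 0.0144). Vha100-1, known for its role in synaptic vesicles of neurons, had 64.8, 65.3, 60.1 and 61.9 RPKM in esc and 73.7, 74.3, 81.7 and 83.0 RPKM in OrgR. All its esc values were below all its OrgR values, as in 45.3% of all tested genes. The difference did not pass (log2 change -0.31 ± 0.10, adjusted p = 0.0556), and after centring on the median gene the change was -0.12. Of 8 neuronal marker genes (elav, nSyb, Syt1, brp, cpx, Syx1A, Csp and Rab3) none passed in either direction, beside 52.5% of all tested genes that did. The 8 genes summed to 169 to 243 RPKM in esc and 180 to 265 RPKM in OrgR. Vha100-3, known from the testis, was at the lowest value of the table in every library except esc 1-2, where it was at 0.009 RPKM.

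The make-up of the subunit a transcripts therefore differed between the genotypes. Vha100-5 made up 11.0% to 15.5% of the summed RPKM of the 5 genes in esc libraries and 0.204% to 0.698% in OrgR libraries. Vha100-4 made up 0.799% to 0.913% in esc and 5.36% to 6.82% in OrgR. Vha100-2 held 53.5% to 54.6% in esc and 45.8% to 47.4% in OrgR, and Vha100-1 held 30.0% to 34.2% in esc and 45.2% to 48.5% in OrgR. These shares were not tested; an exact permutation test of 2 sets against 2 sets cannot give a two-sided p below 0.333. The summed level of subunit a was 191 to 205 RPKM in esc and 163 to 171 RPKM in OrgR.

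**Figure D2:**
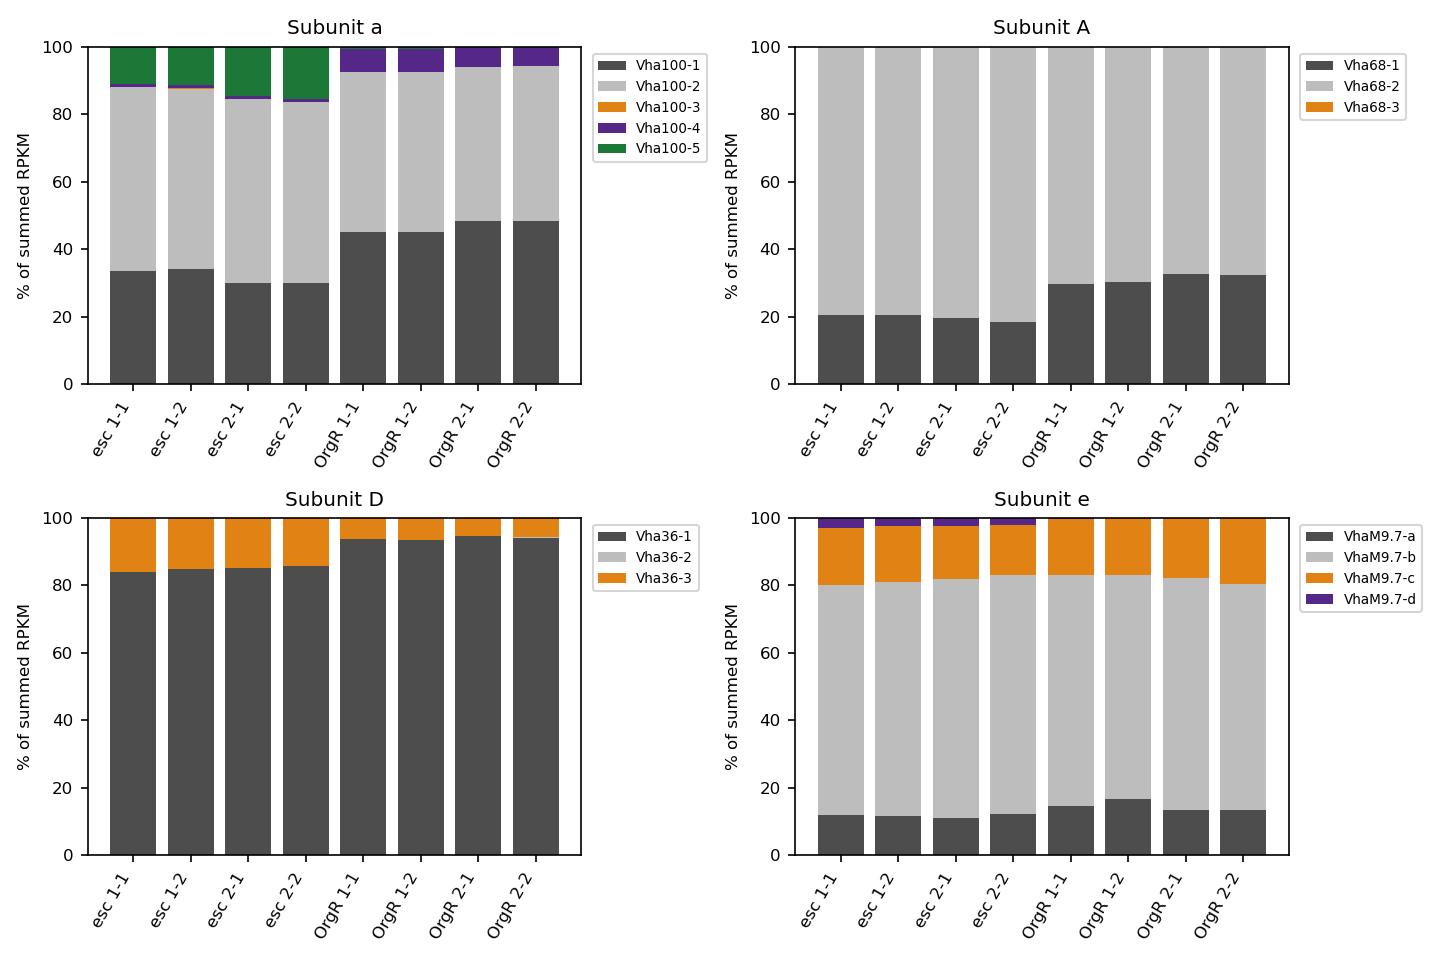
Share of each copy in the summed RPKM of its subunit (y axis, %) in the 4 esc and 4 OrgR libraries, for subunits a, A, D and e. Vha100-5 takes 11.0% to 15.5% of subunit a in esc and under 1% in OrgR, and Vha36-3 takes 14.3% to 15.9% of subunit D in esc and 5.24% to 6.51% in OrgR.

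Vha100-5 and Vha100-4 lie in very different surroundings. Vha100-5 is at 11738948 to 11744524 of arm 2L (dm6), on the plus strand, 82.7 kb from esc. It stands alone among expressed genes. Its 6 nearest annotated neighbours were all too low to be tested, and no tested gene lay on its side away from esc within 100 kb. Over all tested genes 20.9% rose and 31.6% fell, and of the 10 tested genes within 100 kb, 3 rose and 4, esc among them, fell. The nearest tested ones, CG14931, CG14932 and CG14937, had log2 changes between -0.12 and 0.11 and did not pass. An antisense RNA gene, CR44144, covers 18.1% of its exonic bases and was at the lowest value of the table in all 8 libraries. The labels give no genotype for the stretch of chromosome around the esc mutation, so a difference carried by that stretch and an effect of the loss of esc cannot be told apart for Vha100-5.

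Vha100-4 lies on 3R from 18386841 to 18389805, on the minus strand. Its start is 517 bases from the end of Vha100-2 (18390323 to 18399169), which is on the same strand. These direct neighbours moved in opposite directions, as Vha100-2 rose 1.37-fold while Vha100-4 was 6.12-fold lower. On the other side cona, a meiotic gene whose span overlaps 1.7% of the exonic bases of Vha100-4, rose (log2 change 0.74, adjusted p = 0.0118). Midgut genes did not move as a block beside Vha100-4. The Hox gene lab, which specifies the acid-secreting copper cells of the midgut, had 1.42, 1.30, 1.35 and 1.45 RPKM in esc and 16.2, 16.0, 14.6 and 14.3 RPKM in OrgR. It fell (log2 change -2.77 ± 0.11, adjusted p = 0.000675), as did dve, a homeobox gene of the middle midgut (11.8 and 21.5 RPKM in esc and OrgR, log2 change -0.82, adjusted p = 0.0148). The other 5 tested genes of the 8 listed for copper cells and midgut rose, led by the protease gene Jon65Aiv (67.9 and 0.103 RPKM, log2 change 5.67) and the mucin-related gene Mur29B (9.69 and 0.147 RPKM, 3.19). The summed level of that list was 80.8 to 177 RPKM in esc and 48.5 to 52.1 RPKM in OrgR, with alphaTry and betaTry at the lowest value in at least 1 library. Jon65Aiv, Mur29B and alphaTry passed the filter of 0.5 RPKM only through the esc libraries. Of all tested genes, 20.9% rose and 31.6% fell. The part of midgut cells in the level of Vha100-4 was not tested.

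Subunit e is a small membrane protein of V0 with 4 genes in the fly. VhaM9.7-d had 8.88, 7.59, 7.74 and 8.16 RPKM in the esc libraries, against 0.659, 0.103, 0.001 and 0.270 RPKM in the OrgR libraries, where 0.001 is the lowest value of the table. It was thus barely detected in OrgR and at a similar level in all esc libraries. The mean was 8.10 ± 0.20 RPKM in esc and 0.258 ± 0.17 RPKM in OrgR, 31.3-fold higher (log2 change 2.88 ± 0.14, adjusted p = 0.000949). It passed the filter on low values only through the esc libraries. The log2 scale with a pseudocount of 1 understates such a change, and with a pseudocount of 0.1 the log2 change was 4.89. The fold rests on very low OrgR values and moved with single libraries, to 67.9 without OrgR 1-1 and 20.4 without OrgR 1-2. It was 59.7 without OrgR set 1 and 21.2 without OrgR set 2.

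The other copies of subunit e had higher and more even levels. VhaM9.7-b, the broadly expressed copy, had 206, 214, 245 and 254 RPKM in esc and 206, 192, 183 and 179 RPKM in OrgR, and did not pass (log2 change 0.27 ± 0.12, adjusted p = 0.121). VhaM9.7-a was at 36.2 to 43.6 RPKM in esc and 35.6 to 47.9 RPKM in OrgR, and VhaM9.7-c at 50.6 to 54.5 and 47.2 to 52.6 RPKM. Their groups overlapped, and neither passed in any of the 24 other settings. With its rise, VhaM9.7-d reached 2.24% to 2.94% of the subunit e transcripts in esc, against 0.219% or less in OrgR.

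The place of VhaM9.7-d in the genome is next to a Hox gene. It lies on 3R from 16975204 to 16975697 on the plus strand, with 2967 bases and no annotated gene between it and Abd-B (16927212 to 16972236), the most posterior gene of the bithorax complex, a classical Polycomb target. Abd-B had 355, 353, 296 and 306 RPKM in esc and 52.3, 55.1, 59.7 and 61.5 RPKM in OrgR (log2 change 2.50 ± 0.12, adjusted p = 0.00108). On the other side Actn3, on the minus strand, ends 187 bases away. It was at the lowest value in all 4 OrgR libraries and at 0.008 to 0.075 RPKM in esc, too low for the test. AhcyL2 behind it had 16.3, 16.7, 21.7 and 22.4 RPKM in esc and 14.6, 13.6, 15.9 and 15.9 RPKM in OrgR and did not pass (log2 change 0.33, adjusted p = 0.164). Of the 22 tested genes within 100 kb of VhaM9.7-d, 4 rose and 8 fell, beside 20.9% and 31.6% of all tested genes. Among the 22, MESK4, 13.1 kb away, fell (log2 change -1.54). The counts were near the shares over all tested genes and are not read as a property of the neighbourhood.

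**Figure D3:**
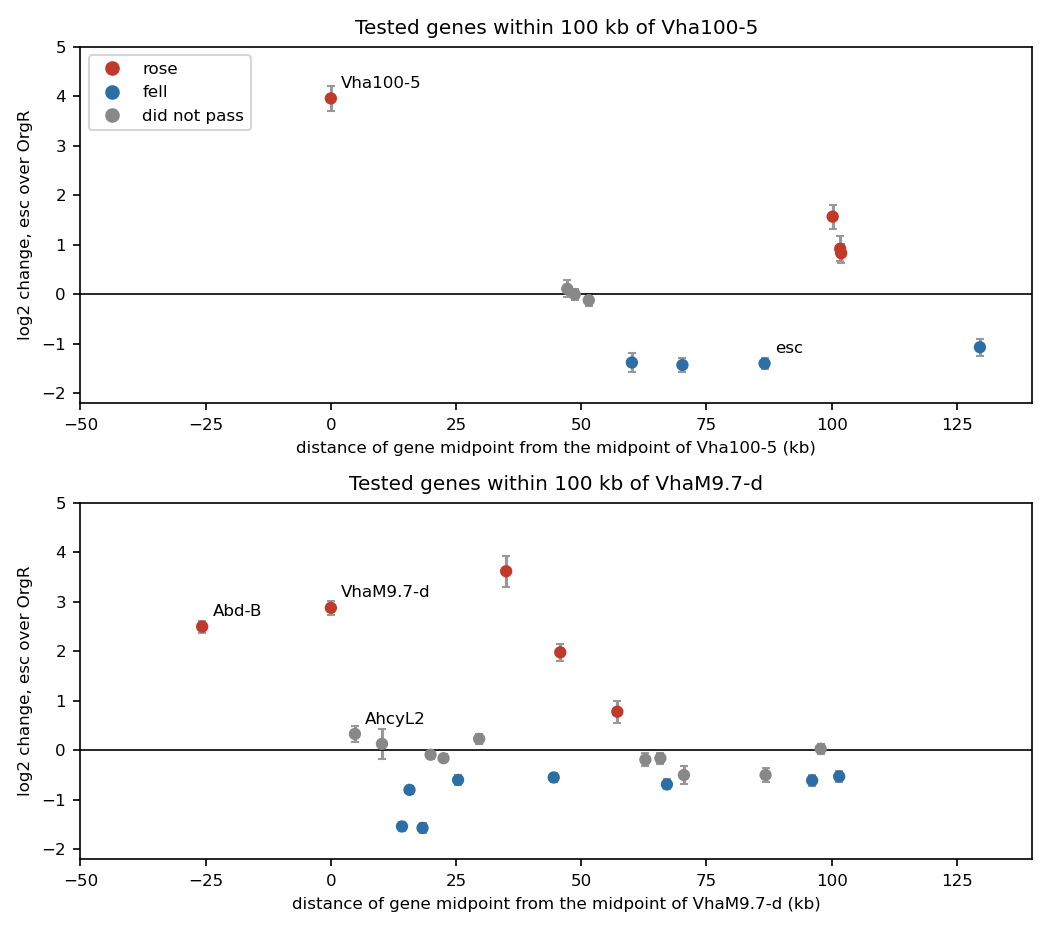
Log2 change, esc over OrgR (y axis, bars show SE of the fit), of tested genes within 100 kb of Vha100-5 (top) and VhaM9.7-d (bottom), by distance of the gene midpoints in kb (x axis); red rose, blue fell, grey did not pass. VhaM9.7-d and its neighbour Abd-B both rose, whereas AhcyL2 on its other side did not pass, and Vha100-5 has no tested gene on its left.

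Subunit D is the shaft of the central rotor. Its copy Vha36-3 had 28.0, 28.2, 30.1 and 28.6 RPKM in esc, against 11.5, 12.2, 8.95 and 9.34 RPKM in OrgR. All esc libraries were far above the highest OrgR library. The mean was 28.7 ± 0.87 RPKM in esc and 10.5 ± 1.9 RPKM in OrgR, 2.74-fold higher (log2 change 1.38 ± 0.15, adjusted p = 0.00474). The broadly expressed copy Vha36-1 had 148, 160, 172 and 172 RPKM in esc and 178, 175, 162 and 152 RPKM in OrgR, with overlapping groups (log2 change -0.03 ± 0.11, adjusted p = 0.801). Vha36-3 accordingly made up 14.3% to 15.9% of the subunit D transcripts in esc and 5.24% to 6.51% in OrgR. The remaining copy, Vha36-2, stayed at or below 0.133 RPKM in all libraries.

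Vha36-3 lies on the X chromosome from 2579091 to 2580560 on the minus strand, between Pdfr, the receptor gene for the neuropeptide PDF, 450 bases away, and CG13759, 397 bases away. Both neighbours were at low levels and rose. Pdfr was at 1.87 to 2.31 RPKM in esc and 0.282 to 0.409 RPKM in OrgR (log2 change 1.20 ± 0.11, adjusted p = 0.00353), and CG13759, whose libraries overlapped, was at 1.60 to 2.87 RPKM in esc and 0.803 to 1.97 RPKM in OrgR (0.66 ± 0.19, adjusted p = 0.0407). Pdfr passed the filter on low values only through the esc libraries. Of the next genes beyond CG13759, CG13760 did not pass (log2 change 0.07) and wds fell (-0.71). Whether the rises of Vha36-3 and its neighbours are linked was not tested.

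Subunit A carries the catalytic sites that hydrolyse ATP. Its 3 genes lie together on 2L, and they did not all move in the same direction. Vha68-2 had 243, 243, 238 and 242 RPKM in esc and 181, 181, 170 and 173 RPKM in OrgR, and rose 1.37-fold (log2 change 0.45 ± 0.08, adjusted p = 0.0134). Vha68-1 had 63.4, 62.7, 57.9 and 54.8 RPKM in esc and 76.6, 79.4, 82.4 and 82.4 RPKM in OrgR, and fell (log2 change -0.42 ± 0.10, adjusted p = 0.0248). The call of Vha68-1 ended after centring on the median gene (log2 change -0.24, adjusted p = 0.118). As a share of the subunit, Vha68-1 held 18.5% to 20.7% in esc and 29.8% to 32.6% in OrgR.

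Vha68-3, a copy known from the testis, had 0.386, 0.370, 0.325 and 0.344 RPKM in esc and 0.049, 0.043, 0.006 and 0.032 RPKM in OrgR. The mean was 11.0-fold higher in esc, with no overlap between the libraries, at a level of 0.110% to 0.126% of the subunit's transcripts. The fold was 18.8 without OrgR set 1 and 7.74 without OrgR set 2. Vha68-3 was too low for the test, and passed when the filter was set at 0.1 RPKM or removed (adjusted p = 0.00661 to 0.0130). It starts 178 bases behind the end of Vha68-2 on the same strand of 2L (12978786 to 12981293, after 12974322 to 12978607), and whether reads running past Vha68-2 were counted in it was not tested. The ratio of means differed between these neighbours, at 11.0 for Vha68-3 and 1.37 for Vha68-2.

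The remaining V1 subunits that have 1 gene each moved little and mostly upward. Vha55, the gene of subunit B, which alternates with A in the head, had 261, 270, 288 and 285 RPKM in esc and 204, 210, 196 and 195 RPKM in OrgR (1.37-fold, log2 change 0.45 ± 0.09, adjusted p = 0.0164). Vha44, the gene of subunit C, which joins head and membrane sector, had 65.6, 70.9, 66.5 and 68.3 RPKM in esc and 48.7, 50.8, 49.9 and 49.4 RPKM in OrgR (1.37-fold, 0.44 ± 0.08, adjusted p = 0.0143). The 4 broadly expressed copies that rose, Vha68-2, Vha55, Vha44 and Vha100-2, thus had the same ratio of means to 3 digits. The stalk genes Vha26 (subunit E, 261 and 219 RPKM in esc and OrgR) and Vha13 (subunit G, 1229 and 986 RPKM), and the regulatory VhaSFD (subunit H, 97.0 and 85.9 RPKM), did not pass. In each of these 3 genes all esc libraries were above all OrgR libraries, as in 26.2% of all tested genes. Their log2 changes were 0.25, 0.32 and 0.17, with adjusted p-values of 0.0763, 0.105 and 0.122.

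The calls of these small changes were mostly lost when a set was left out, in fits with 1 sample fewer. Without esc set 1, without esc set 2, without OrgR set 1 and without OrgR set 2, in this order, the adjusted p was 0.0606, 0.0658, 0.0527 and 0.0704 for Vha68-2. It was 0.0495, 0.0830, 0.0582 and 0.0810 for Vha55, 0.0680, 0.0728, 0.0617 and 0.0672 for Vha44, and 0.0518, 0.0793, 0.0631 and 0.0661 for Vha100-2. For the fall of Vha68-1 it was 0.0545, 0.116, 0.0728 and 0.106. The log2 changes in these fits were 0.42 to 0.49 for Vha68-2, 0.40 to 0.51 for Vha55, 0.43 to 0.45 for Vha44, 0.41 to 0.49 for Vha100-2 and -0.50 to -0.34 for Vha68-1. In these fits the spread of the lone set is assumed to equal that of the other genotype.

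Subunit F completes the central rotor. Vha14-1 had 274, 277, 340 and 341 RPKM in esc and 314, 315, 275 and 262 RPKM in OrgR, with overlapping groups (log2 change 0.08 ± 0.15, adjusted p = 0.680). Its second copy, Vha14-2, was near 1.5 RPKM in both genotypes, at 1.22, 1.73, 1.41 and 1.47 RPKM in esc and 1.91, 1.88, 0.925 and 1.42 RPKM in OrgR (-0.03 ± 0.17, adjusted p = 0.899). With Vha36-1, neither of the broadly expressed rotor genes passed in any setting tried.

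In the membrane sector, subunit c forms most of the rotating proton-binding ring. Vha16-1 had 521, 508, 416 and 399 RPKM in esc and 307, 339, 449 and 487 RPKM in OrgR. The sets of one genotype differed more than the genotypes did, with set 2 minus set 1 at -0.34 in esc and 0.54 in OrgR on the log2 scale, and the difference did not pass (log2 change 0.24 ± 0.22, adjusted p = 0.402). The other 4 copies of subunit c, Vha16-2, Vha16-3, Vha16-4 and Vha16-5, were at or below 0.583 RPKM in every library and untested. Together they made up 0.0745% to 0.181% of the subunit's transcripts in esc and 0.150% to 0.273% in OrgR. Vha16-5 had 0.129, 0.081, 0.001 and 0.001 RPKM in esc and 0.093, 0.401, 0.384 and 0.247 RPKM in OrgR, so that the groups overlapped. It passed as lower in esc when the filter was set at 0.1 RPKM or removed (adjusted p = 0.0344 to 0.0493). Exons of Vha16-2 are covered to 84.5% by an antisense gene, and its value is uncertain.

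VhaPPA1-1, the gene of ring subunit c'', had 285, 288, 300 and 277 RPKM in esc and 252, 245, 236 and 223 RPKM in OrgR (1.20-fold, log2 change 0.27 ± 0.08, adjusted p = 0.0544). Its second copy, VhaPPA1-2, lies 2052 bases away and had 0.332, 0.295, 0.300 and 0.284 RPKM in esc and 0.403, 0.344, 0.641 and 0.507 RPKM in OrgR. The esc libraries were all lower, but the level was too low for the test. VhaAC39-1, for subunit d, which couples ring and rotor, had 182, 180, 203 and 204 RPKM in esc and 163, 166, 142 and 143 RPKM in OrgR (1.26-fold, 0.33 ± 0.12, adjusted p = 0.0713). Its second copy, VhaAC39-2, had 0.095, 0.090, 0.039 and 0.133 RPKM in esc and 0.001, 0.065, 0.118 and 0.068 RPKM in OrgR, with overlapping groups.

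Neither accessory gene passed. In both, all esc libraries were above all OrgR libraries, as in 26.2% of all tested genes. VhaAC45, which encodes a glycoprotein of the assembled pump, had 258, 258, 264 and 247 RPKM in esc and 221, 222, 206 and 213 RPKM in OrgR (1.19-fold, log2 change 0.25 ± 0.08, adjusted p = 0.0538). VhaM8.9, now named ATP6AP2 and known in mammals as the prorenin receptor, had 225, 229, 211 and 211 RPKM in esc and 189, 194, 204 and 202 RPKM in OrgR (1.11-fold, 0.15 ± 0.09, adjusted p = 0.204). A paralog of VhaAC45 is listed in the table as CG31030 and in the current annotation as VhaAC45RP, and so is not among the 33. It had 59.2, 56.9, 54.9 and 54.2 RPKM in esc and 38.0, 37.2, 39.4 and 36.8 RPKM in OrgR, and rose 1.49-fold (0.56 ± 0.09, adjusted p = 0.0103).

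Of all 17 broadly expressed copies, 4 rose, 1 fell and 12 did not pass, and 14 had a log2 change above 0. Over all tested genes 20.9% rose, 31.6% fell and 4020 of 10547 had a log2 change above 0. The share of rises was thus near that of all tested genes. In 11 of the 17 copies every esc library was above every OrgR library, an arrangement found in 26.2% of all tested genes. In 2 (Vha68-1 and Vha100-1) every esc library was below, found in 45.3%. The summed level of the 17 copies was 4398 to 4673 RPKM in esc and 3734 to 3888 RPKM in OrgR. This was 0.372% to 0.382% of all RPKM of a library in esc and 0.334% to 0.341% in OrgR. V1 and V0 moved by similar amounts, at 1.20-fold for the sum of the 9 V1 copies and 1.18-fold for that of the 6 V0 copies, though as a share of all RPKM the V0 sums overlapped. After centring on the median gene, or with median-of-ratios scaling, 15 of the 24 tested members rose and 1 (Vha100-4) fell, beside 25.4% and 23.9% of all tested genes that rose, 13.1% and 13.4% that fell and 38.4% and 37.3% that did either. Rises then made up 93.8% of the calls among members, and 77.8% as deposited.

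**Figure D4:**
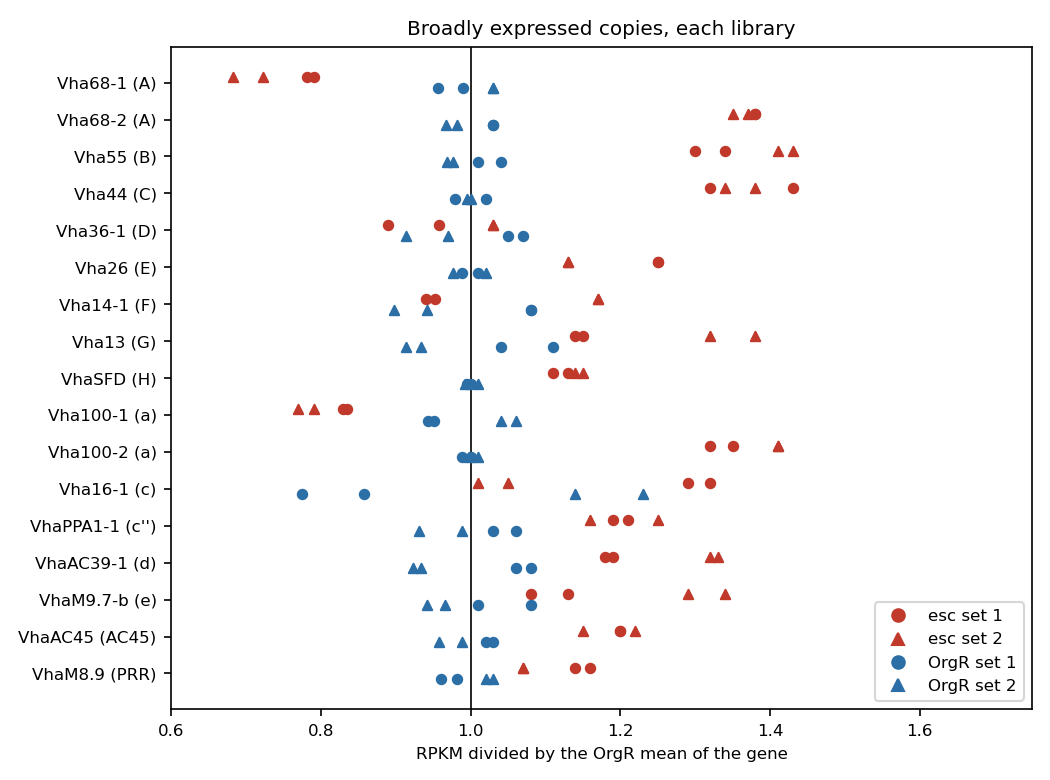
RPKM of the 17 broadly expressed copies in each library divided by the OrgR mean of the gene (x axis, linear); red esc, blue OrgR, circles set 1, triangles set 2. Vha68-2, Vha55, Vha44 and Vha100-2 lie at 1.30 to 1.43 in the esc libraries, Vha68-1 and Vha100-1 lie below 1 in all of them, and for Vha16-1 the sets of a genotype lie apart.

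The 16 other copies behaved less evenly. Of these, 7 were tested, and 3 rose, 1 fell and 3 did not pass (Vha14-2, VhaM9.7-a and VhaM9.7-c), beside 20.9% and 31.6% of all tested genes that rose and fell. The 9 untested ones lay at or below 0.641 RPKM in every library. The summed level of all 16 other copies was 149 to 170 RPKM in esc and 105 to 124 RPKM in OrgR, small beside that of the broadly expressed copies. Of the adjacent copies on 1 strand, Vha100-4 and Vha100-2 moved in opposite directions. Vha68-2 and Vha68-3 were both higher in every esc library than in any OrgR library, as were 26.2% of all tested genes. In Vha16-3 and Vha16-2, both untested, the libraries of the genotypes overlapped.

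**Figure D5:**
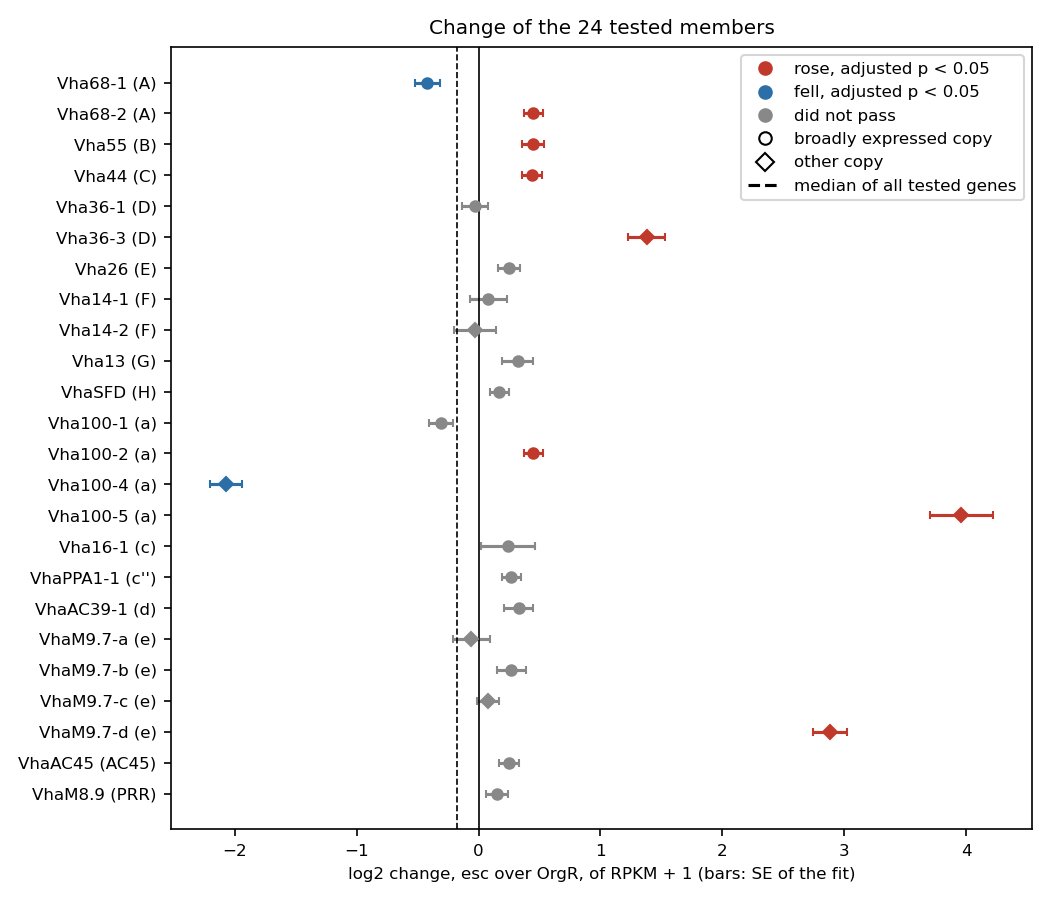
Log2 change, esc over OrgR, of log2(RPKM + 1) for the 24 tested members (x axis, bars show SE of the fit), by gene and subunit; circles are broadly expressed copies and diamonds other copies. Most members lie between the median of all tested genes (dashed line, -0.18) and 0.5, with Vha100-5, VhaM9.7-d and Vha36-3 far above and Vha100-4 far below.

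Lists of other genes that work with the pump are read beside a median log2 change of 0.25 for the broadly expressed copies and -0.18 for all tested genes. Of all tested genes, 20.9% rose and 31.6% fell, and after centring 25.4% rose and 13.1% fell. Of 11 listed genes for assembly, transcriptional control and lysosomal signalling, 1 rose (CG31030) and 3 fell, with a median log2 change of -0.21. CG14184, which encodes the Ragulator subunit Lamtor1 (69.0 and 91.1 RPKM in esc and OrgR, log2 change -0.39, adjusted p = 0.0247), and the GTPase gene RagA-B (34.7 and 45.1 RPKM, -0.37, adjusted p = 0.0300) fell. Of 20 lysosome and endosome genes, 1 rose and 9 fell, with a median of -0.30. The rise was that of the glucocerebrosidase gene Gba1b, with 17.1, 17.1, 18.6 and 17.6 RPKM in esc and 2.52, 2.08, 1.87 and 1.71 RPKM in OrgR (2.62 ± 0.13, adjusted p = 0.00110). The largest falls were those of the vesicle tethering gene dor (17.1 and 27.3 RPKM, -0.64) and the chloride transporter gene ClC-b (13.6 and 20.7 RPKM, -0.58). After centring on the median gene most of these falls were no longer called, as none of the 11 and 1 of the 20 passed as lower. The log2 changes relative to the median gene were still below 0 for the 4 falls named, at -0.21 for CG14184, -0.19 for RagA-B, -0.46 for dor and -0.39 for ClC-b.

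Among 16 genes for ion exchange and transport at the plasma membrane, which serve beside the pump in transporting epithelia, 4 rose and 2 fell, with a median log2 change of 0.12. Beside these stand 20.9% of all tested genes that rose and 31.6% that fell. The carbonic anhydrase gene CAH2 had 80.4, 84.4, 124 and 128 RPKM in esc and 10.3, 10.8, 8.72 and 9.30 RPKM in OrgR (log2 change 3.26 ± 0.23, adjusted p = 0.00210). The sodium/proton antiporter gene Nha2 had 4.02, 3.65, 5.85 and 6.60 RPKM in esc and 0.297, 0.122, 0.145 and 0.168 RPKM in OrgR (2.32 ± 0.22, adjusted p = 0.00380). Nha2 passed the filter on low values only through the esc libraries. The falls were those of the phosphate cotransporter gene NaPi-T (2.54 to 3.30 RPKM in esc and 4.79 to 5.28 RPKM in OrgR, -0.57) and the cation chloride cotransporter gene Ncc69 (35.2 and 52.6 RPKM in esc and OrgR, -0.56). After centring 4 of the 16 rose and 1 fell, beside 25.4% and 13.1% of all tested genes.

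Markers of other tissues, among them some known for high V-ATPase use, were counted as well. Their counts stand beside 20.9% of all tested genes that rose and 31.6% that fell. Of 8 Malpighian tubule genes, 2 rose (ClC-a, log2 change 1.52, and CapaR, 0.80), 2 fell (cv-c, -0.83, and Ncc69, -0.56) and 2 were untested, with Uro at the lowest value in at least 1 library and a summed level of 191 to 208 RPKM in esc and 226 to 255 RPKM in OrgR. CapaR, with a mean of 0.447 RPKM in OrgR, passed the filter on low values only through the esc libraries. Of 6 tracheal genes, 2 rose (Gasp, 1.23, and verm, 0.69) and 1 fell (Tsf2, -0.63), with summed levels of 2760 to 3454 RPKM in esc and 1797 to 2053 RPKM in OrgR. Of 5 nephrocyte genes 1 fell (Klf15, -0.50), with sums of 28.7 to 37.0 RPKM in esc and 27.9 to 52.1 RPKM in OrgR. After centring or with median-of-ratios scaling none of these falls was called, and 2 Malpighian tubule genes, 3 tracheal genes and 0 nephrocyte genes rose. Of all tested genes, 25.4% and 23.9% rose and 13.1% and 13.4% fell in these settings, in this order. The part of these cell types in the levels of the pump genes was not tested.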

How the data were processed

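The authors deposited a table of RPKM values for 17321 genes in 8 libraries, linear and unfiltered per the labels. Per the submitters' processing notes the build was dm6. The aligner, counter and gene models are not given in the sources used here. Libraries were unstranded paired reads of 150 bp, per the labels' protocols, so strand cannot assign reads where genes overlap. The lowest value, 0.001 RPKM, filled 27.6% of cells and was read as a floor. Absolute read depth is unknown, and relative depth was taken from the ratios of low values.

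Libraries of a set were averaged on the log2(RPKM + 1) scale, and 4 set means were fitted with limma 3.58.1 in R 4.3.3 (trended variance, 2 residual degrees of freedom, two-sided, Benjamini-Hochberg over 10547 genes averaging 0.5 RPKM or more). Nothing in the labels says that sets are separate collections, so p-values measure a spread that may be technical. The fit was tested on simulated data. Positions are those of Ensembl release 115. Copies were classed as broadly expressed or other from general knowledge of the fly genes. Printed per library were members changed by at least 1 (log2) and, per subunit, the broadly expressed and most changed other copy. Others were added after their values were seen. From each list up to 2 largest rises and falls are named. Members and lists were chosen with earlier results of these data known.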

Additional observations from a re-analysis of the deposited data

How the results depend on the processing

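The calls of Vha100-5, VhaM9.7-d, Vha36-3 and Vha100-4 held in all 24 other settings, and no called log2 change of a member turned its direction. As deposited, 7 members rose and 2 fell. Rises numbered 15 with median-of-ratios scaling, after centring and with 8 libraries as separate samples, and 14 with a correlation within sets. Falls numbered 1 with median-of-ratios scaling and after centring. With the set number as a replicate block, 3 members rose and 1 fell, and 2467 of all tested genes changed, against 5537 without the block. Nothing in the labels says that the numbers pair the sets. Differences between sets correlated at -0.34 between the genotypes over 10547 genes, and with the numbers crossed, an alternative chosen after seeing the data, 13 members rose, 3 fell and 6717 genes changed. Over left-out sets and libraries, 3 to 9 members rose, 1 to 3 fell and 2071 to 5730 genes changed. Rises numbered 4 without esc set 1 and 3 without each of the other sets, and the fewest changed genes came without OrgR set 2. With columns scaled to the same total, also chosen after seeing the data, 7 rose and 3 fell, and 5969 genes changed. With a filter of 0.1 RPKM 8 rose and 3 fell, and with none 9 and 3. With 8 libraries as separate samples 8006 genes changed, and with a correlation within sets 6409. With median-of-ratios scaling 3934 genes changed, 64.2% of them upward, and 39.9% upward as deposited.

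The share of the other copies, esc minus OrgR, was 9.11 percentage points for subunit D, 7.36 for a and -2.08 for e. As a median ratio of the other copies to the broadly expressed ones, a different measure that gives each copy equal weight, it was 5.70, 0.509 and -4.53. Absolute depth is unknown, so no counting interval can be given for the copies below 0.5 RPKM, of which Vha68-3 and Vha16-5 passed at lower filters.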
